A study of Mus musculus with 2 samples.

Results

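The 9 genes described here encode proteins of the sine oculis homeobox, eyes absent (EYA) and dachshund (DACH) families, and the question was where DLX2 CUT&Tag peaks lay in and around them in the embryonic upper jaw. They are *Six2*, *Six3*, *Six4*, *Six5*, *Eya1*, *Eya2*, *Eya3*, *Eya4* and *Dach1*, taken by name from 21779 annotated protein-coding genes. Other genes of these families were not analysed here. A window was the RefSeq extent of a gene in GRCm38 plus 100 kb on each side. A shared region was a stretch covered by a peak of each replicate, and the windows held 13 of the 10921 shared regions of the series. The samples were 2 libraries made with a DLX2 antibody from maxillary process cells of wildtype C57BL/6 mouse embryos at E12.5, called replicate 1 and replicate 2. In CUT&Tag the antibody leads a transposase to its target, so that fragments pile up where the target sits on the genome. No control library, other genotype or other stage was used here, and it is not stated whether the libraries came from separate litters, so the spread between them may be partly technical. There was therefore no comparison between groups and no p-value.

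Sine oculis proteins, here SIX2 to SIX5, are homeodomain transcription factors that bind DNA, as DLX2 itself does. EYA proteins are coactivators with phosphatase activity that do not bind DNA on their own and act in the nucleus together with sine oculis proteins. DACH proteins are corepressors related to the SKI proteins. These factors form a network, often with PAX proteins, that is used again and again in the eye, ear, kidney, muscle and head.

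Replicate 2 had the longer list, with 62093 peaks against 28061 in replicate 1. The peak caller's lowest −log10 q was 1.00452 in replicate 1 and 1.00241 in replicate 2. The paper reports fewer peaks in each replicate and fewer peaks in common. Shares and ranks given here therefore refer to the deposited lists, not to the peak set that the paper describes. Why the numbers differ was not tested. Peak height is given below as the fold over local background from the authors' peak caller and as the fragments at the summit, a whole number recovered here from the deposited fold and −log10 p. In the windows of the 9 genes a peak rested on 4 to 12 fragments in replicate 1 and on 7 to 22 in replicate 2. The medians were 6 and 9 fragments, the same as over the whole lists. The lowest local backgrounds were 0.387 and 1.1 fragments in replicates 1 and 2, a floor that rises with sequencing depth. Read totals are not in the lists.

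Sequence was at hand only around annotated start sites, from RefSeq at GRCm38.p6, so no shared region could be read base by base. The set shown holds the gap beyond the start of *Six2*, on the far side of which the highest shared regions lay, and the stretches of start-site sequence upstream of a gene or at a noncoding start that a peak covered. The first has each match of the homeodomain core TAAT in capitals, and the others have the 11 bases around the peak summit in capitals.
Six2 upstream, chr17:85688255-85688493, minus strand: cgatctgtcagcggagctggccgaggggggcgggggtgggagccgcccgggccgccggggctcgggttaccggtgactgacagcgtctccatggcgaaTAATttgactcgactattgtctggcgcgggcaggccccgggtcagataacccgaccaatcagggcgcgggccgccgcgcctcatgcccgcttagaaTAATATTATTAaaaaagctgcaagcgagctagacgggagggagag
Six3os1 start, chr17:85618347-85618447, minus strand, replicate 2 peak: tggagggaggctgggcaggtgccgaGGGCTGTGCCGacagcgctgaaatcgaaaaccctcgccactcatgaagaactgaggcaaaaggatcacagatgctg
Slc2a10 upstream, chr2:165503655-165503747, plus strand, replicate 1 peak: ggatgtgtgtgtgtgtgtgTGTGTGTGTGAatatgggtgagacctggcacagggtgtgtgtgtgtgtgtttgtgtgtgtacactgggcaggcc

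The 239 bases beyond *Six2* separate its start from that of the noncoding gene *CJ186046Rik*, which runs the other way, and no peak of either replicate lay in them. They held 4 matches to TAAT or its reverse complement ATTA, all but the first in the same stretch, where matches adjoin or overlap. Any match at all was present in 58.0% of all 300-base start windows, a share that gives no background for a number of matches. The letter string was picked after the sequence was seen. The *Six3os1* stretch spans the start of a noncoding transcript whose extent overlaps that of *Six3*, and it had a peak in replicate 2 alone, with its summit 0.021 kb from that start. The *Slc2a10* stretch lay in the *Eya2* window, had a peak in replicate 1 alone, and contained an uninterrupted TG run of 26 bases.

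Start windows were found for 7 of the 9 genes, with 2 each for *Six4* and *Eya4*, whose windows overlap. Those not matched were *Eya1* and *Eya2*. None of the 9 windows held TAATTA (a homeodomain site, in 5.29% of all windows, both strands searched), CACGTG (the E-box, 7.15%) or TGTGGT (the RUNX core, 16.8%). TCAGGT (a sine oculis protein core, 14.5% of all windows) was found in 1 window, a start of *Six4*. TAATTA contains the core TAAT, no other string holds another, and the absence of letters from such short windows says nothing of binding elsewhere.

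Taken as a group, the genes were not set apart by having a shared region. A shared region lay in the windows of 6 of the 9 genes, against 60.2% of all protein-coding genes. A replicate 1 peak lay in 8 of 9 windows, against 83.0% of protein-coding genes, and a replicate 2 peak in 9 of 9, against 91.7%. Each share is near its background. Each base counted once, the windows spanned 2728 kb and held 45 peaks of replicate 1, 81 of replicate 2 and 13 shared regions. This is 1.65 replicate 1 peaks per 100 kb (exact Poisson 95% interval 1.2 to 2.21), 2.97 replicate 2 peaks (2.36 to 3.69) and 0.476 shared regions (0.254 to 0.815). The medians over the windows of all protein-coding genes were 1.37, 3.38 and 0.440, all inside those intervals, which cover counting error only.

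**Figure D1:**
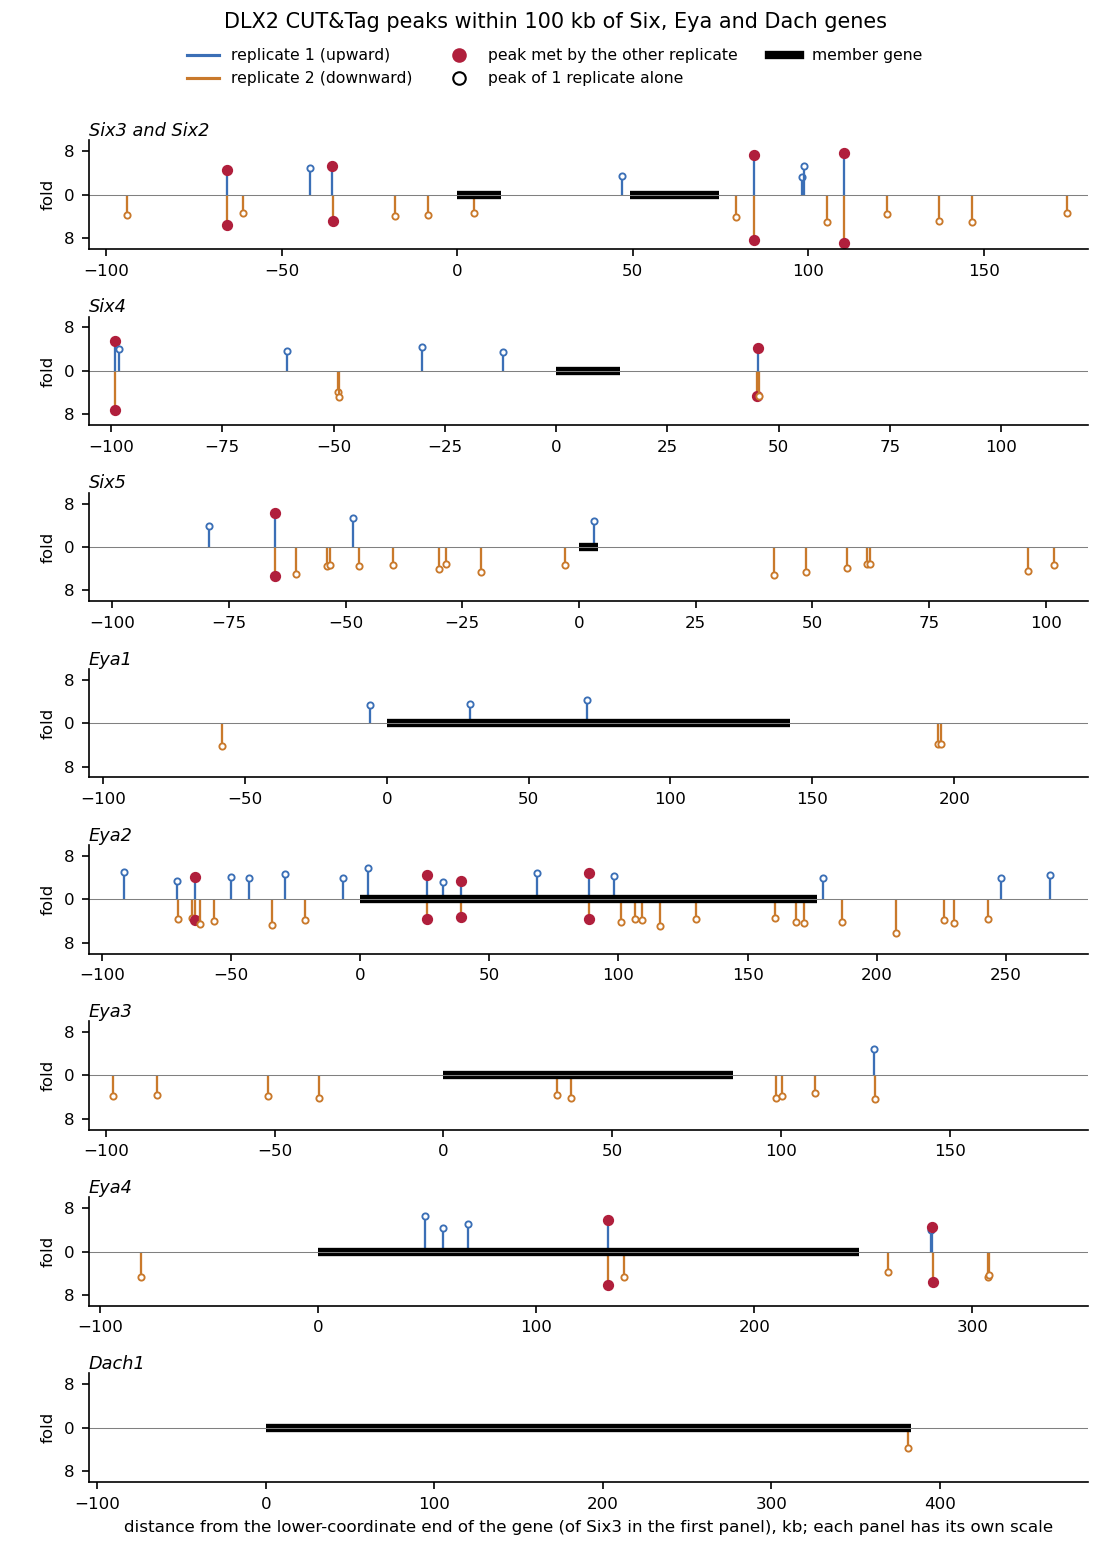
Peaks in the windows of the 9 genes, with the distance from the lower-coordinate end of the gene in kb on the horizontal axis (1 panel per gene, *Six3* and *Six2* together) and the fold over background on the vertical axis, upward for replicate 1 and downward for replicate 2. Filled red points are peaks met by the other replicate, open points are peaks of 1 replicate alone and black bars are the genes; the highest red points lie beyond *Six2*, and *Dach1* has a single open point.

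Recurrence of peaks between the replicates was not detectably different from that of the whole lists. In replicate 1, 13 of 45 peaks had a replicate 2 partner, or 28.9% (95% Wilson interval 17.7 to 43.4%), against 38.9% of the whole list. In replicate 2, 13 of 81 peaks had a partner, or 16.0% (9.63 to 25.5%), against 17.2% of the whole list. Both intervals contain the value of the whole list, so no difference was detectable with so few peaks.

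The shared regions were spread over gene bodies, neighbouring genes and stretches without an annotated gene. None of the 13 was within 2 kb of an end of a member gene, but such stretches make up only 2.64% of the window length, too little for a count of 0 to say anything of these genes. Inside a member gene lay 4 of the 13, 3 of them in *Eya2* and 1 in *Eya4*. The 4 make up 30.8% (12.7 to 57.6%), against the 40.0% of the window length that all member genes together take up. Another 2 lay inside a neighbouring protein-coding gene, 2 in a noncoding gene and 5 in no annotated gene. Exons and introns were not told apart, since only gene extents were used.

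*Six2* and *Six3* are neighbours on chromosome 17, with 36.5 kb between them, and had the highest regions of the group. SIX2 is best known for keeping nephron progenitors undifferentiated in the kidney and is also made in facial mesenchyme, whereas SIX3 acts in the forebrain and eye. Their windows overlap, so 3 shared regions count for both. Joined, the windows spanned 275 kb with 8 replicate 1 peaks, 15 replicate 2 peaks and 4 shared regions.

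The 2 highest shared regions of the group lay beyond the start of *Six2*, on the side away from *Six3*. The first, at chr17:85723742-85724027, lay 35.5 kb beyond the gene. It had folds of 7.73 and 8.81 in replicates 1 and 2. Its summits held 11 fragments in replicate 1 (exact Poisson interval 5.49 to 19.7) and 21 in replicate 2 (13.0 to 32.1), over backgrounds of 0.552 and 1.5. Its lower fold exceeded that of 96.5% of all shared regions, at rank 380 of 10921.

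The second, at chr17:85697937-85698210, lay 9.68 kb beyond *Six2*. The folds there were 7.33 and 8.34 in replicates 1 and 2, from 12 and 22 fragments. It stood above 95.1% of all shared regions, at rank 531. The summits of the replicates were 23 bp apart here and 35 bp apart in the first region. Both regions were inside *CJ186046Rik*, a noncoding gene of 38.5 kb at chr17:85688494-85727021. That gene held 4 peaks of each replicate, of which only these 2 pairs overlapped.

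On the other side, beyond *Six3*, lay the other 2 shared regions of the pair, both in no annotated gene. The region at chr17:85577943-85578106, 35.5 kb from *Six3*, had folds of 5.23 and 4.88 in replicates 1 and 2. The region at chr17:85547903-85548149, 65.5 kb from *Six3* and outside the *Six2* window, had folds of 4.62 and 5.49 in replicates 1 and 2. Between the genes there was 1 peak, in replicate 1 alone, with 4 fragments. No peak lay inside *Six2*, and the extent of *Six3* held only the replicate 2 peak at the *Six3os1* start, with a fold of 3.39.

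**Figure D2:**
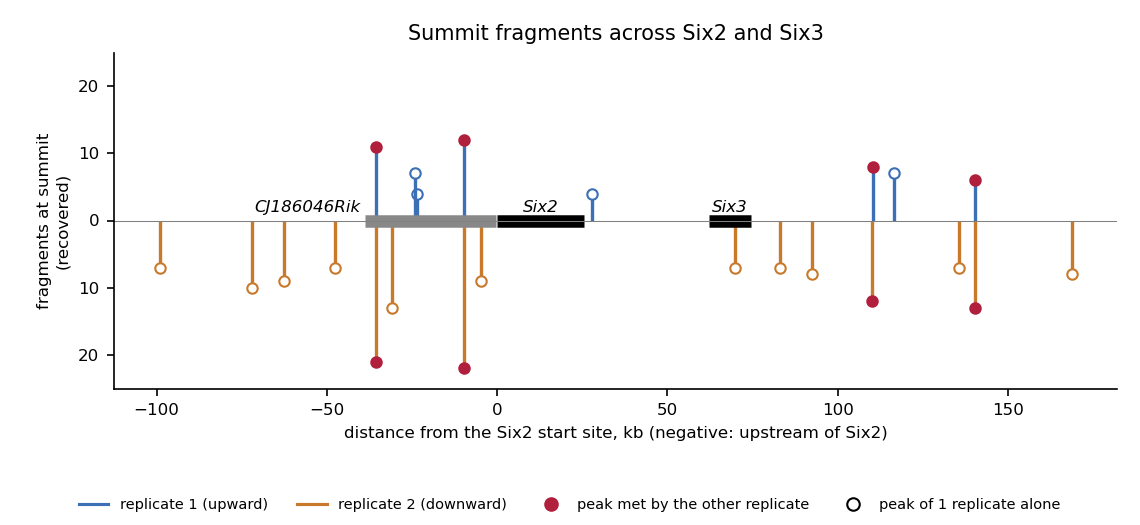
Recovered fragments at the summit of each peak across *Six2* and *Six3* (vertical axis, upward for replicate 1, downward for replicate 2) against the distance from the *Six2* start site in kb (horizontal axis, negative upstream of *Six2*). Filled points are peaks met by the other replicate, and black and grey bars are genes; the tallest stems of both replicates, 11 and 12 upward and 21 and 22 downward, stand over the grey bar of *CJ186046Rik*.

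The *Six2* window held 3.10 replicate 1 peaks per 100 kb (1.25 to 6.40), more than 89.2% of protein-coding genes, and 5.32 replicate 2 peaks (2.75 to 9.29), more than 73.4%. The *Six3* window held 3.76 replicate 1 peaks per 100 kb (1.62 to 7.42) and 5.17 replicate 2 peaks (2.58 to 9.26). Its 1.88 shared regions per 100 kb (0.513 to 4.82) were above 95.2% of protein-coding genes, and *Six2* had 1.33 (0.274 to 3.89). The value for *Six3* includes the regions beyond *Six2*, which lay 71.7 and 97.5 kb from *Six3*. With flanks of 50 kb in place of 100 kb, *Six3* had 1 shared region, or 0.888 per 100 kb, and *Six2* had 2, or 1.59. In the 1 Mb on either side of the *Six3* window the density was 1.85 replicate 1 peaks, 4.95 replicate 2 peaks and 0.800 shared regions per 100 kb. The intervals of the window contain those values.

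*Six4*, which takes part in muscle and sensory organ development, had 6 replicate 1 peaks, 5 replicate 2 peaks and 2 shared regions in its window on chromosome 12. The region with the higher fold, at chr12:73000508-73000696, was 98.9 kb from the gene and just inside the window. It had folds of 5.52 and 7.14 in replicates 1 and 2, with summits at the same base. The other, at chr12:73144733-73144864, lay 30.7 kb beyond the gene inside its neighbour *Mnat1*, with folds of 4.28 and 4.61 in replicates 1 and 2. *Six4* itself held no peak in either replicate.

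*Six5* lies beside *Dmpk*, the gene of the repeat expanded in myotonic dystrophy, in a stretch of chromosome 7 packed with genes. Its window had the most uneven lists of *Six2* to *Six5*, with 4 replicate 1 peaks and 17 replicate 2 peaks. The 8.33 replicate 2 peaks per 100 kb (4.85 to 13.3) were more than 95.3% of protein-coding genes had. In replicate 1 the 1.96 peaks per 100 kb (0.534 to 5.02) were more than 67.9% had. For shared regions the density of 0.490 was above 61.7%. Only 1 region was shared, at chr7:19029218-19029456, inside *Sympk* and 65.1 kb from *Six5*, with folds of 6.28 and 5.33 in replicates 1 and 2. *Six5* itself contained 1 replicate 1 peak with 7 fragments and a fold of 4.73, within 2 kb of its end, and 0 replicate 2 peaks. The nearest replicate 2 peak was 6183 bp from it, inside *Dmpk*.

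The 4 EYA genes differed in how many peaks they had. *Eya2* had the most peaks of the group, 17 in replicate 1 and 23 in replicate 2, or 4.51 (2.63 to 7.23) and 6.11 (3.87 to 9.16) per 100 kb. The replicate 1 density was above 98.1% and the replicate 2 density above 81.3% of protein-coding genes. Inside the gene lay 7 of the replicate 1 peaks and 11 of the replicate 2 peaks. The surrounding 1 Mb on either side was dense too, with 2.80 replicate 1 peaks and 6.75 replicate 2 peaks per 100 kb.

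The 4 shared regions of *Eya2* had the lowest lower folds of the group. They rested on 4 to 8 fragments in replicate 1 and on 9 to 11 in replicate 2. Their backgrounds were 0.493 to 0.847 in replicate 1 and 1.71 to 2.24 in replicate 2. Fold sets the fragments plus 1 against that background plus 1, so the same fragments give a lower fold where the background is higher. The region with the highest lower fold, at chr2:165531165-165531204, lay 63.8 kb from the gene with folds of 4.11 and 3.89 in replicates 1 and 2. Inside the gene, chr2:165683507-165683596 had folds of 4.87 and 3.70 in replicates 1 and 2. The region at chr2:165620932-165621079 had folds of 4.51 and 3.69 in replicates 1 and 2, and the region at chr2:165634089-165634218 folds of 3.35 and 3.34 in replicates 1 and 2. Their lower folds exceeded those of only 5.13 to 24.0% of all shared regions, and all 4 had the higher fold in replicate 1.

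*Eya4*, a gene of inherited deafness and heart muscle disease, had 6 replicate 1 peaks, 7 replicate 2 peaks and 2 shared regions on chromosome 10. The region inside the gene, at chr10:23235760-23235871, was 114 kb downstream of the start site, with folds of 5.77 and 6.19 in replicates 1 and 2. It rested on 7 fragments in replicate 1 and 12 in replicate 2, over the lowest background found in either library. The region at chr10:23384503-23384705 lay 33.7 kb from the gene, on the side of its start, with folds of 4.56 and 5.63 in replicates 1 and 2. Its summits were 450 bp apart, the widest gap of the 13, against a median of 61 bp.

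*Eya1*, the gene of branchio-oto-renal syndrome, had no shared region in its window. It had 3 replicate 1 peaks and 3 replicate 2 peaks, 0.877 per 100 kb in each (0.181 to 2.56). The 2 replicate 1 peaks inside the gene had 4 and 5 fragments, and no replicate 2 peak lay in the gene. All 6 peaks were more than 50 kb from any peak of the other replicate. The nearest shared region, at chr1:14052796-14052809, was 116 kb away, with folds of 5.05 and 3.81 in replicates 1 and 2.

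*Eya3* had 1 replicate 1 peak against 10 replicate 2 peaks, the highest ratio among the 8 genes with a replicate 1 peak, and no shared region. Its replicate 1 density of 0.350 per 100 kb (0.00886 to 1.95) lay below the 2.4 of the 1 Mb on either side, whereas its replicate 2 density was 3.5 (1.68 to 6.44) against 5.40 around it. The single replicate 1 peak lay 167 bp from a replicate 2 peak without touching it. The nearest shared region, at chr4:132472435-132472533, was 166 kb away, with folds of 6.14 and 4.14 in replicates 1 and 2.

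*Dach1*, which acts in the eye, limb and kidney, was the emptiest of the 9. Its window of 583 kb on chromosome 14 is the longest, yet held 0 peaks in replicate 1 and 1 in replicate 2. That peak, at chr14:98168234-98168416, was inside the gene, 1.44 kb from the start site, with 7 fragments and a fold of 3.81. Of the 557 protein-coding genes with a window of at least 500 kb, 10 had as few (1.80%), and their medians were 6 replicate 1 peaks and 13 replicate 2 peaks. This set of long windows was chosen after the values were seen.

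The sparseness reached beyond the *Dach1* window. The 1 Mb on either side held 0.4 replicate 1 peaks and 0.850 replicate 2 peaks per 100 kb, the lowest of the 9 genes in each replicate. The window's own 0 (upper bound 0.633) and 0.172 (0.00434 to 0.956) were not detectably lower. The nearest shared region, at chr14:97446068-97446208, was 341 kb from the gene, with folds of 4.33 and 3.81 in replicates 1 and 2.

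**Figure D3:**
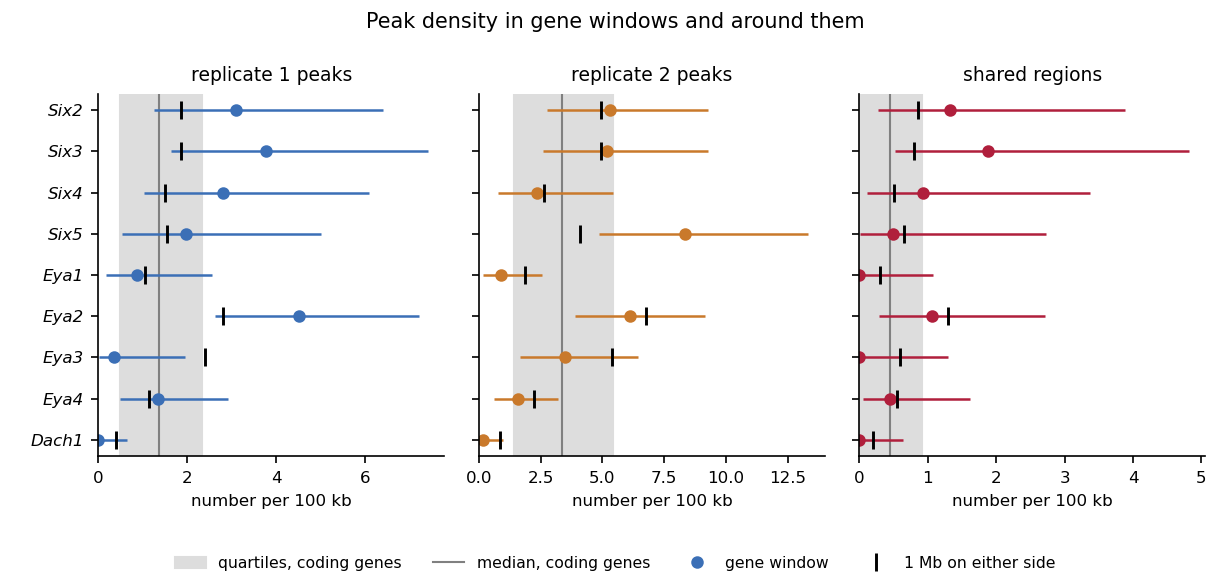
Number of replicate 1 peaks, replicate 2 peaks and shared regions per 100 kb (horizontal axes, with their own scales) in the window of each gene (dots, with exact Poisson 95% intervals as bars) and in the 1 Mb on either side (black ticks). Grey bands and lines are the quartiles and median over 21779 protein-coding genes; *Dach1* sits at or near 0 in all 3 panels, and the *Six5* dot of replicate 2 lies farthest to the right at 8.33.

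Ordered by shared regions per 100 kb, with flanks of 100 kb, the genes ran *Six3*, *Six2*, *Eya2*, *Six4*, *Six5* and *Eya4*, then *Eya1*, *Eya3* and *Dach1* at 0. At these flanks every shared region of *Six2* also counts for *Six3*, so their places are not separate observations. The intervals of neighbours in this order overlap, and the order depended on the flank. With flanks of 50 kb it ran *Six2* (1.59), *Eya2* (1.08), *Six3* (0.888), *Six4* (0.874) and *Eya4* (0.575), with *Six5* at 0 beside the other three. With flanks of 200 kb *Eya2* came first (1.39), then *Six3* (1.21) and *Six2* (1.18), and *Dach1* alone was at 0. The joined windows of *Six2* to *Six5* held 7 shared regions, or 1.01 per 100 kb (0.406 to 2.08), and those of the 4 EYA genes held 6, or 0.413 (0.152 to 0.899). These intervals overlap as well. The upper bound for *Dach1* was 0.633.

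The folds of the 13 shared regions were ordinary for shared regions of this series. The lower of the 2 folds had a median of 4.62 and ran from 3.34 to 7.73, against a median of 4.51 over all 10921 shared regions. Of the 13, 7 had the higher fold in replicate 2 and 6 in replicate 1, and the former share was 49.6% over all shared regions. Of these regions, 3 had a −log10 q of at least 5 in both replicates: the 2 beyond *Six2* and the 1 in *Sympk*. With a fold of at least 5 in both there were 5, which adds the far region of *Six4* and the one inside *Eya4*.

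**Figure D4:**
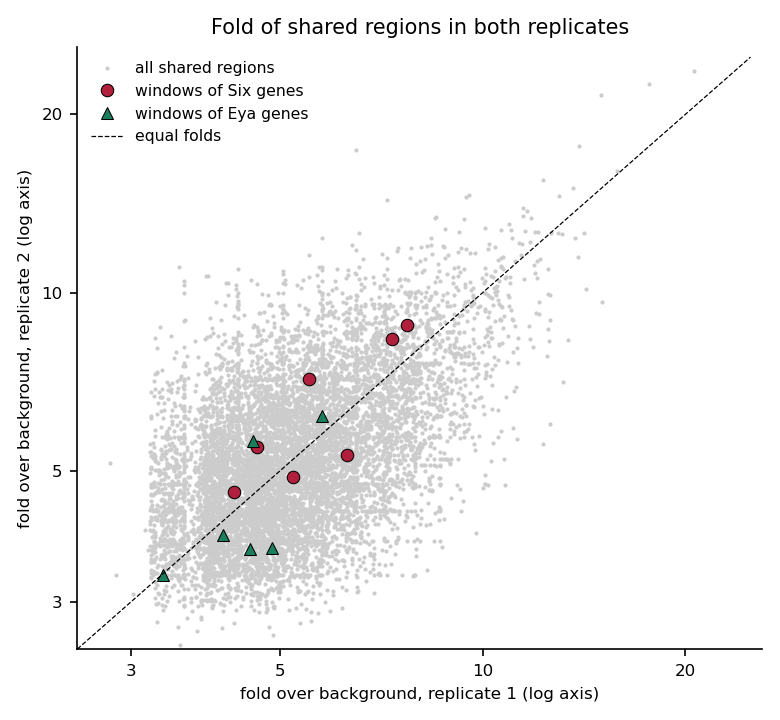
Fold over background of shared regions in replicate 1 (horizontal) and replicate 2 (vertical), both on log axes, with all shared regions in grey, those in windows of *Six2* to *Six5* as red circles and of EYA genes as green triangles. The 2 highest red circles, at 7.33 and 8.34 and at 7.73 and 8.81, are the regions beyond *Six2*, and the 4 green triangles on or below the dashed line of equal folds are the regions of *Eya2*.

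Other genes of the network were counted in the same windows, from a list of PAX partners, sine oculis cofactors, DACH corepressors and sine oculis or EYA targets. A shared region lay in the windows of 14 of these 20 genes, again against 60.2% of all protein-coding genes, with a median of 0.423 shared regions per 100 kb. By role these were 3 of 6 PAX genes, 5 of 5 cofactors, 4 of 5 corepressors and 2 of 4 targets. The most were at *Pax7*, a regulator of neural crest and muscle stem cells, with 7 shared regions from 14 replicate 1 peaks and 28 replicate 2 peaks. *Ccnd1*, the cyclin that drives entry into the cell cycle, followed with 6 shared regions from 10 and 17 peaks. The third was *Ski*, the corepressor to which DACH1 is related, with 2 shared regions from 7 and 20 peaks, level with 4 other genes in shared regions and placed ahead by its replicate 2 peaks.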

How the data were processed

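The DLX2 CUT&Tag peak lists, 1 per library and not pooled, were analysed as 1 wildtype group of 2 replicates, numbered in the order of their records. Per the submitters' processing notes the tools were Trim Galore 0.4.5, Bowtie 1.1.2 and MACS2 2.2.7 on mm10 (GRCm38); the study's methods name other versions and bowtie2, and peak-calling settings are not given in the sources used here. The labels describe sonicated chromatin, the methods a transposase.

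The deposited fold is a ratio of summit to local background within a library. The deposited −log10 p and −log10 q are the peak caller's, and the deposited score is the whole part of 10 times the −log10 q. Summit positions were deposited as an offset from the peak start. Read totals are not in the lists, and the number of fragments n at a summit was solved from fold = (n + 1)/(background + 1) and the Poisson tail beyond n, with a match within 0.001 for 100% of peaks. These numbers are an inference.

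Peaks were joined where they had at least 1 bp in common. Windows were counted for 21779 protein-coding genes of RefSeq GRCm38.p6, leaving out 340 genes placed before position 3000000 on chromosomes other than Y. Start sites came from RefSeq start windows of 250 bases before to 50 after. Intervals are 95% Wilson or exact Poisson, cover counting error only, and treat neighbouring peaks as independent, which they need not be. The motif plan for whole regions needs a genome sequence and was not run; motifs were searched in start windows instead. The joining, counting and fragment steps were tested on simulated data. Scripts ran in Python 3.11.15 with scipy 1.17.1 and statsmodels 0.14.6 for the intervals and pandas 2.3.3 for the tables.

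All 9 genes are named, with at least the shared region of the highest lower fold for each, or the nearest one where the window had none. Network genes are named for the 3 with the most shared regions. The genes and lists were chosen with earlier results of these data known.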

Additional observations from a re-analysis of the deposited data

How the results depend on the processing

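The counts depended on what counts as a peak and as shared. At a −log10 q of at least 5 the windows held 3 shared regions (0.110 per 100 kb) in 3 genes, *Six2*, *Six3* and *Six5*. The same 2 regions count for both *Six2* and *Six3*. Of the peaks, 75% of replicate 1 and 33.3% of replicate 2 were met. Inside a member gene lay 0 percent of the regions, and the median lower fold was 7.33. All of these values rest on those 3 regions, too few to show a change in recurrence. At a fold of at least 5 the windows held 5 shared regions (0.183 per 100 kb), with 45.5% and 55.6% met. An overlap of 50% of each peak also left 5 (0.183 per 100 kb), with 11.1% and 6.17% met. The lower counts follow from the filters; the cause of the other changes was not tested. Flanks of 200 kb, with their longer windows, held 26 regions. Their density of 0.601 per 100 kb stayed inside the interval of the main value. Leaving out a replicate, so that all peaks of the other count, gave from 45 to 81 peaks, 1.65 to 2.97 per 100 kb, in 8 to 9 genes, with 21.0 to 31.1% inside a member gene and a median fold from 3.94 to 4.33.

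Of the alternatives to these values, 39 of 59 stayed within 1.5 times the count or inside the interval of the value. For single genes 41 of 81 alternative counts differed by more than 1.5 times, 25 upward and 16 downward. *Six2* had 2 regions at either threshold and at 50% overlap, whereas *Eya2* fell to 0 at either threshold. A gap of up to 500 bp between peaks, added after the data were seen, gave *Eya3* 1 region and 17 in all. *Dach1* had 0 in each alternative that uses both replicates. With 4 to 12 fragments under a replicate 1 peak, weak sites are not detectable at this depth, and without a control library sites of DLX2 cannot be told apart from background that both libraries share.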

Other observations

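Several strong peaks near these genes had no partner. In replicate 1 the highest such peak had a fold of 6.49 and 8 fragments at chr10:23151892-23152038 inside *Eya4*, 83701 bp from any replicate 2 peak. Of all replicate 1 peaks with a fold from 6 to below 7, 73.0% met a replicate 2 peak (95% Wilson interval 70.9 to 75%). In replicate 2 the highest had a fold of 6.25 and 13 fragments at chr2:165802289-165802451, inside *Zmynd8* in the *Eya2* window, 27979 bp from any replicate 1 peak. In that fold range 55.3% of replicate 2 peaks met a replicate 1 peak (53.4 to 57.2%). Both were picked after their values were seen.

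Some pairs of peaks came close without overlap. At *Eya3* the gap was 167 bp, between chr4:132766303-132766430 in replicate 1 and chr4:132766598-132766757 in replicate 2. In the *Eya2* window another pair was 377 bp apart. Beyond *Eya4*, replicate 1 had a further peak 465 bp from the replicate 2 peak of a shared region, and in *Mnat1* replicate 2 had a further peak 77 bp from the replicate 1 peak of another.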
